A study of Mus musculus with 18 samples.

Results

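The genes described here encode the proteins of the cytosolic ribosome. They were chosen by name alone: every gene that the array files call Rpl or Rps followed by a number, without the Rps6k kinases, together with Rplp0, Rplp1, Rplp2 and Rpsa. The rule found 83 genes, read by 138 probes, among the 19218 genes that could be tested. Of the 83, 77 encode canonical subunit proteins, 46 of the large subunit (3 of these form the stalk) and 31 of the small subunit. The other 6 are Rpl3l, Rpl7l1, Rpl22l1, Rpl36al and Rps27l, which encode paralogues or relatives of canonical proteins, and Rps19bp1, which encodes a protein that binds the small subunit protein Rps19 and is no ribosomal protein itself. Canonical proteins that carry other names, such as Fau and Rack1, fall outside the rule, and these are given for comparison.

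RNA came from young adult male C57BL/6 mice, with no genetic change or treatment named for any group. Interscapular brown, inguinal and epididymal fat was digested with collagenase and split into adipocytes, which float, and the stromal-vascular fraction (SVF), the pelleted cells, from which erythrocytes were lysed. This gave 6 groups, brown SVF, brown adipocyte, inguinal SVF, inguinal adipocyte, epididymal SVF and epididymal adipocyte, with 3 biological replicates each on 18 one-colour Agilent arrays. The comparisons ask how the fractions of a depot differ, how the same fraction differs between depots, and whether the fraction difference depends on the depot.

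The ribosome translates messenger RNA, its small subunit reading the message and its large subunit joining amino acids. Ribosomal proteins are made in near-equal amounts, and their messages are among the most abundant of a cell. Those messages start with a run of pyrimidines, the TOP sequence, through which the kinase mTOR controls their translation, so that a message level is not a rate of protein synthesis. The SVF of fat holds fibroblast-like progenitors, endothelial cells and leukocytes, and adipocytes of brown fat are rich in mitochondria, which have ribosomes of their own.

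The starts of these genes carry letters that are rarer elsewhere. RefSeq's promoter windows (GRCm38.p6, 250 bases before to 50 after the annotated start, 300 in all) matched 63 of the 83 genes with 75 windows. Because the TOP run begins at the first transcribed base, the letters CTTTCC were searched on the gene's own strand within 10 bases of the start. They were found in 8 of the 75 windows (10.7%), against 0.837% of all 32851 windows. The letters CCGGAAG, the core bound by ETS factors, were searched on both strands of the whole window and lay in 26 windows (34.7%), against 8.86% of all windows. A match describes the letters, not a working site, and annotated starts can be off by some bases. The following stretches run from 25 bases before the start to 20 after it, with CTTTCC in capitals. The first 4 are canonical members with the run, and the last 3 are non-canonical members called in 1 or more comparisons, whose stretches hold no such match.
Rpl28 (chr7:4792940-4792984, + strand): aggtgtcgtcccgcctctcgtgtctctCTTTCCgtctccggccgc
Rpl38 (chr11:114668555-114668599, + strand): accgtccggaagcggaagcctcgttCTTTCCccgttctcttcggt
Rps10 (chr17:27635225-27635269, - strand): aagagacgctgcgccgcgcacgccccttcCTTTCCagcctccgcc
Rps27 (chr3:90213629-90213673, - strand): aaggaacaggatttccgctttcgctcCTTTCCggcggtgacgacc
Rps27l (chr9:66946061-66946105, + strand): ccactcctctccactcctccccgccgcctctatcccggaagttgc
Rpl22l1 (chr3:28805483-28805527, + strand): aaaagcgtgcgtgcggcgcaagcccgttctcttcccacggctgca
Rps19bp1 (chr15:80264287-80264331, - strand): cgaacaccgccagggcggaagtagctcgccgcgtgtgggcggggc

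Each level rests on a probe of 60 bases, and ribosomal protein genes have many processed pseudogenes, so the probe decides what was read. The probes of 6 genes on which the results turn are given with the mm8 interval in the array files. No part is in capitals because none was singled out.
Rps27l (chr9:66746823-66748513, + strand): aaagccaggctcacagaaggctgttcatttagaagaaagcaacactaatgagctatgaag
Rpl22l1 (chr3:28998348-28998407, + strand): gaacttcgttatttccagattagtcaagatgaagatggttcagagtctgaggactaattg
Rpl22 (chr4:151173849-151173908, + strand): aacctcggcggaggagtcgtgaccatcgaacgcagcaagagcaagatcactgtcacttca
Rps26 (chr10:128028256-128029040, - strand): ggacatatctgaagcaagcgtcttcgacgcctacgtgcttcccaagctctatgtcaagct
Rpl3 (chr15:79907077-79907651, - strand): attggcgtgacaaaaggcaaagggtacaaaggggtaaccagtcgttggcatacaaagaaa
Rps19bp1, its dimmer probe (chr15:80088583-80088642, - strand): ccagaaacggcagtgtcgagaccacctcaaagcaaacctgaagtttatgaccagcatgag
The intervals of Rps27l, Rps26 and Rpl3 are longer than the probe.

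A level is log2 of a probe's processed signal minus log2 of the array's 75th percentile signal, which was 323 to 1162 over the arrays, and a difference of 1 is a doubling. Differences are given ± standard error from limma over 3 arrays per group, with Benjamini-Hochberg adjusted p over all 19218 genes, and a gene is called at an adjusted p under 0.05. The number of arrays limits the precision. The summed signal of 10 adipocyte markers was 1807 to 4132 (relative to the 75th percentile) on adipocyte arrays and 371 to 748 on SVF arrays other than brown SVF replicate 2, where it was 1698. The library labelled inguinal SVF replicate 1 lacks the Y-linked Ddx3y (-6.37, against at least 0.24 on the others) although the label says male. The 6 inguinal and epididymal adipocyte arrays were read with an older Feature Extraction version, on other slides and scan days, than the other 12. Fraction differences in these depots, and differences between brown adipocytes and the other adipocytes, therefore cannot be told apart from this change. Inguinal and epididymal adipocyte arrays share no slide or scan day either, so their difference cannot be told apart from these.

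The members were bright: 80 of 83 were well above background on all 18 arrays, and no spot was saturated. The level of the median member was highest on inguinal SVF arrays, at 6.75, 6.41 and 7.19 in replicates 1 to 3, and lowest on epididymal adipocyte arrays, at 6.00, 5.88 and 6.09. It was 6.08, 5.96 and 6.09 in brown SVF and 6.65, 6.12 and 6.87 in brown adipocytes. Inguinal adipocytes spread widest, at 6.94, 6.65 and 5.98, and epididymal SVF gave 5.89, 5.95 and 6.47. Thus all 3 inguinal SVF arrays lay above all brown SVF and all epididymal adipocyte arrays, while inguinal adipocytes overlapped every other group. By gene, 54 of 83 members had their highest group mean in inguinal SVF and 21 in inguinal adipocytes, and 48 had their lowest in epididymal adipocytes.

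**Figure D1:**
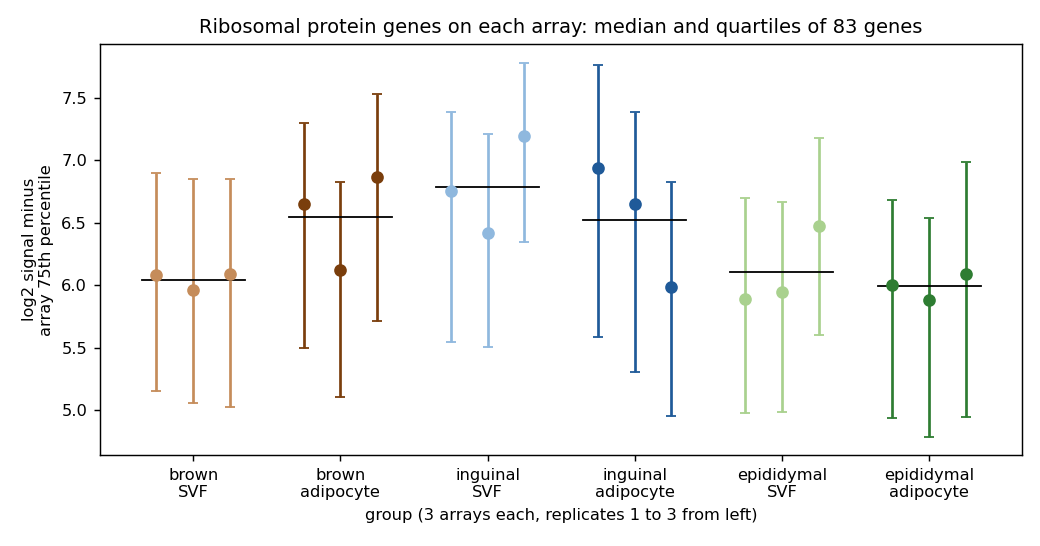
Level of the 83 ribosomal protein genes on each array (log2 signal minus the array's 75th percentile), with the point at the median member, bars from lower to upper quartile, and a line at the mean of each group's 3 medians. The inguinal SVF arrays sit at 6.41 to 7.19 and the epididymal adipocyte arrays at 5.88 to 6.09.

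Inguinal SVF was above both other SVFs for nearly all members. Members were lower in brown than in inguinal SVF for 81 of 83 genes, with a median difference of -0.56, against 0.01 over all genes. The 2 members on the other side of 0 were Rps27l (0.19 ± 0.27, adjusted p = 0.769) and Rpl3l, the latter too dim to order. Inguinal exceeded epididymal SVF for 80 of 83 members, with a median of 0.60, against -0.03 over all genes. Here the exceptions were Rps27l (-0.26), Rpl7l1 (-0.04) and Rps19bp1 (-0.02), all non-canonical, whereas all 77 canonical members were above 0. Brown minus epididymal SVF had a median of 0.02, with 47 of 83 members above 0, but this joins opposite values: 0.22 (70 above 0) within one scan day, with 2 arrays of each group, and -0.34 (6 above 0) on the slide with 1 of each. Large and small subunit genes had like medians, which were 0.60 and 0.62 for inguinal minus epididymal and -0.59 and -0.55 for brown minus inguinal SVF. Quantile normalization gave medians of 0.36 and -0.46 in these comparisons, and the deposited matrix 0.36 and -0.43. Under normexp background correction, whose fit failed on 4 arrays, inguinal SVF replicates 1 and 2 among them, they were 0.07 and -0.07, and under plain background subtraction 0.56 and -0.57.

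Few single genes passed the test in these comparisons. Rpl22l1, whose protein is a paralogue of the large subunit protein Rpl22, was the 1 member called in brown minus inguinal SVF, where 2.35% of all genes were called, 1.86% higher and 0.489% lower. Its level was 4.45, 4.63 and 4.64 in brown SVF and 5.58, 5.27 and 5.58 in inguinal SVF, with no overlap, a difference of -0.90 ± 0.22 and an adjusted p of 0.0475. The call ended when any of 14 of the 18 arrays was left out in turn, with the adjusted p reaching 0.170, and the dimmer probe of Rpl22l1 gave 0.30, the opposite sign. Rpl39, a small protein at the exit tunnel of the large subunit, differed by -1.07 ± 0.31 (adjusted p = 0.0870). Rpl36a, also of the large subunit, differed by -1.02 ± 0.33 (adjusted p = 0.131). With scan day as a block both were called (adjusted p = 0.0339 and 0.0292), as were Rpl22l1, Rpl17, Rpl6 and Rps15a. With slide as a block Rpl36a, Rps15, Rps15a and Rps19 were called, and Rpl22l1 was not. All of these were lower in brown SVF.

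No member was called by limma in inguinal minus epididymal SVF, where 0.291% of all genes were (0.0572% higher, 0.234% lower). None was called in brown minus epididymal SVF (1.74% of all genes, 1.06% higher and 0.687% lower). Slide and scan day held arrays of several SVF groups, so the shift could be read within them. Inguinal minus epididymal SVF had a median of 0.61 on the slide with 1 array of each and 0.60 on the slide with 2 of each. Brown minus inguinal SVF had a median of -0.91 on the slide they shared and -0.36 within the other scan day.

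Lymphocyte markers were highest on inguinal arrays. The summed signal of 7 B cell markers was 2.48, 25.0 and 166 in inguinal SVF replicates 1 to 3 and 2.67 to 5.46 in the other SVFs. For 10 T and NK cell markers it was 4.01, 11.3 and 106, against 2.86 to 7.86, and each marker of both lists was well above background on 1 or more inguinal SVF arrays. Replicate 3 was thus highest in the lymphocyte sums and in the median member, but replicate 1, low in both sums, had the second highest member level (6.75). Replicate 1, which lacks Ddx3y, stood apart in 7 mesothelial markers, which summed to 153.5 there and to 0.464 and 0.434 in replicates 2 and 3. Leaving out each replicate in turn kept the median of inguinal minus epididymal SVF at 0.43 or more. Without replicate 3 the median of inguinal minus epididymal SVF was 0.43 and that of brown minus inguinal SVF -0.35. Their part in the result was not tested. In whole fractions, more cells of a type cannot be told apart from more RNA per cell.

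**Figure D2:**
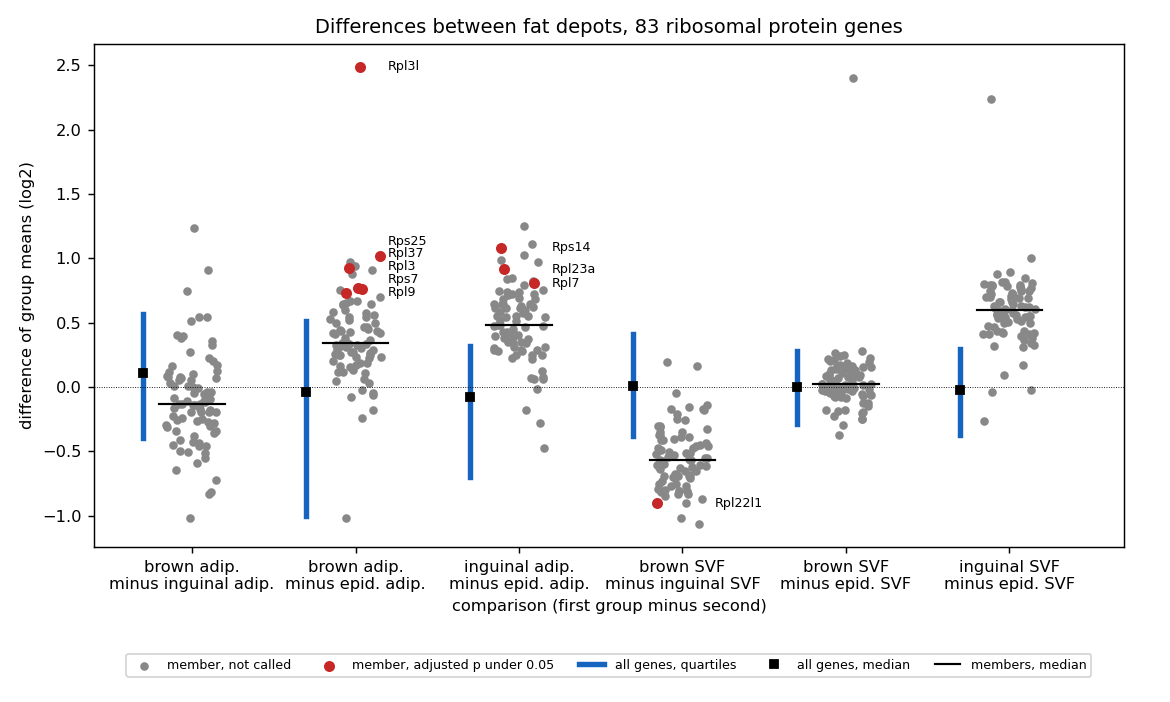
Difference of group means (log2) for each member in the 6 comparisons between depots, as points, red and named where called, beside the median and quartiles of all genes. Nearly all members lie below 0 in brown minus inguinal SVF (median -0.56) and above 0 in inguinal minus epididymal SVF (median 0.60).

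Few members were called between adipocytes and SVF on the 75th percentile scale. In brown fat, 3 members were called, all higher in adipocytes, and none lower, where 20.4% of all genes were called, 11.6% higher and 8.74% lower. The median was 0.22 (0.10 over all genes), with 68 of 83 members above 0, but quantile normalization and the authors' deposited matrix turned it to -0.43 and -0.45, so no direction of the family is given. In inguinal fat, 2 members were higher and 3 lower in adipocytes (14.2% of all genes, 8.96% higher and 5.27% lower), with a median of -0.22. In epididymal fat none was higher and 2 were lower (25.2% of all genes, 17.9% higher and 7.31% lower), with a median of -0.16. Both medians kept their sign under those scalings (-0.58 and -0.58 in inguinal fat, -0.45 and -0.44 in epididymal fat). Their counts were then larger and mostly lower: quantile normalization called 2 members higher and 18 lower in inguinal fat and 0 higher and 8 lower in epididymal fat, and the deposited matrix 2 and 21, and 2 and 15. In brown fat they called 1 higher and 2 lower, and 1 and 4. Without inguinal SVF replicate 3 the inguinal median was 0.0012, and without epididymal SVF replicate 3 the epididymal median was 0.033.

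Of the members called higher in adipocytes over SVF, Rps27l and Rps19bp1 are not canonical, and Rplp2 is. Rps27l, a paralogue of the small subunit gene Rps27 and known as a p53 target, had levels of 4.13, 4.36 and 4.34 in brown SVF and 5.52, 5.08 and 6.12 in brown adipocytes. In inguinal fat it was 4.21, 4.28 and 3.77 in SVF and 5.07, 4.88 and 5.23 in adipocytes. In epididymal fat it was 4.14, 4.26 and 4.65 against 5.06, 4.81 and 5.36. Every adipocyte array exceeded every SVF array, in all depots. The difference was 1.29 ± 0.27 in brown (adjusted p = 0.00348) and 0.97 ± 0.27 in inguinal fat (adjusted p = 0.0278), and 0.73 ± 0.27 in epididymal fat, which was not called (adjusted p = 0.0603). In brown fat the call held when each of the 18 arrays was left out in turn, with adjusted p of at most 0.0216. Rps27 itself, a zinc finger protein of the small subunit, differed by 0.13, 0.16 and -0.02, depots in the same order (adjusted p of 0.731 or more), with overlapping arrays in brown fat (7.43, 7.42 and 7.35 in SVF, 7.60, 7.26 and 7.73 in adipocytes).

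Rps19bp1, the binding protein of Rps19, showed a like pattern. Its level was 1.62, 1.91 and 1.93 in brown SVF and 2.61, 2.40 and 3.41 in brown adipocytes. In inguinal fat the values were 1.57, 1.75 and 2.28 in SVF and 2.91, 2.75 and 3.64 in adipocytes, again without overlap. It was higher in adipocytes by 0.98 ± 0.32 in brown (adjusted p = 0.0385) and by 1.23 ± 0.32 in inguinal fat (adjusted p = 0.0190). In epididymal fat the difference was 0.69 ± 0.32 (adjusted p = 0.123). Its dimmer probe, printed above, gave 0.86, 1.09 and 0.68. Rps19, its partner, differed by 0.48, 0.13 and 0.39, none called, and a dimmer Rps19 probe gave 1.31, 1.04 and 1.40.

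The stalk of the large subunit is built of Rplp0 and the acidic proteins Rplp1 and Rplp2, and recruits elongation factors. Rplp2 rose in brown adipocytes, with levels of 7.86, 8.13 and 7.77 in SVF and 9.17, 8.37 and 9.05 in adipocytes. The arrays did not overlap, and the difference was 0.95 ± 0.28 (adjusted p = 0.0239). It was 0.34 in inguinal and 0.44 in epididymal fat, not called. Rplp1, its dimerization partner, differed by 0.78 ± 0.30 in brown fat (adjusted p = 0.0884), by 0.48 in inguinal and by 0.55 in epididymal fat. The stalk base Rplp0 differed by 0.03, -0.17 and -0.41, but its probe of this name was not the only one. The array has 2 probes named Arbp, which RefSeq assigns to Rplp0, and the brighter of these gave 0.66, 0.74 and 0.52, none called. That Arbp probe read 7.18 to 9.08 over the arrays and the probe named Rplp0 only 3.55 to 5.88, so the member value is that of a dimmer probe.

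**Figure D3:**
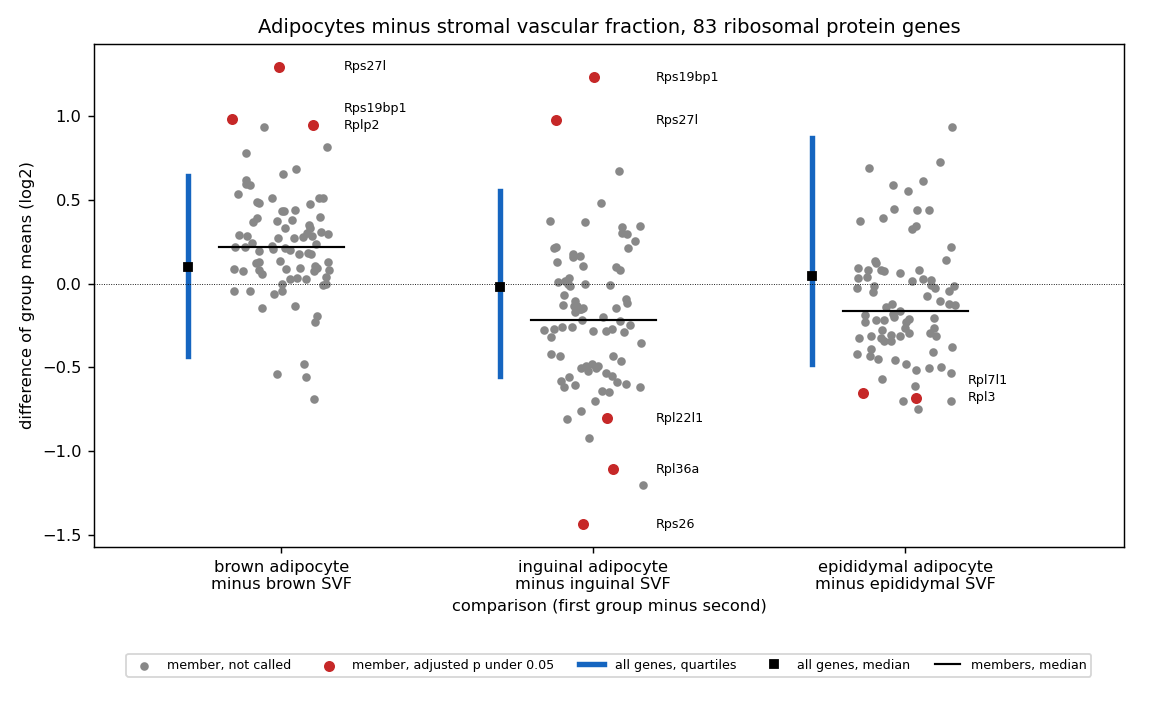
Adipocyte minus SVF difference (log2) of each member in 3 depots, red and named where the adjusted p is under 0.05, with the median and quartiles of all genes beside them. Rps27l and Rps19bp1 lie at the top in brown (1.29 and 0.98) and inguinal fat (0.97 and 1.23).

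The call for Rplp2 ended in 4 and that for Rps19bp1 in brown fat in 5 of the 18 runs that left out an array. Rplp2 was also not called under quantile normalization (0.14), in the deposited matrix (0.11), under normexp (0.81) and scaled to the median member (0.44). Rps19bp1 in brown fat was not called under these (0.73, 0.71, 0.83 and 0.48), under background subtraction (0.80), or with only the arrays compared (adjusted p = 0.0520). With brown SVF replicate 1 or 3, or brown adipocyte replicate 1 or 3, left out, the brown count was 1, and without brown adipocyte replicate 2 it was 5. With the fraction difference in brown fat read within slides, the median member differed by 0.09 on the slide with 2 arrays of each group and by 0.49 on the slide with 1 of each. With slide as a block, 4 members were higher (Rpl30 was added, at 0.81) and 1 was lower, the large subunit gene Rpl14 (-0.69).

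Members that fell in adipocytes were called in inguinal fat (3) and epididymal fat (2). Rps26, a small subunit protein at the exit of the messenger RNA, had levels of 4.94, 5.10 and 6.34 in inguinal SVF and 4.44, 3.92 and 3.71 in inguinal adipocytes. The arrays did not overlap, and the difference was -1.44 ± 0.40 (adjusted p = 0.0279). In epididymal fat it was -0.70 ± 0.40 (adjusted p = 0.214) and in brown fat 0.29. Rpl36a, at the exit site of the large subunit, had 6.39, 6.35 and 7.07 in inguinal SVF and 5.92, 5.87 and 4.69 in adipocytes. It fell by 1.11 on the log2 scale (SE 0.33), and its other 2 probes gave -0.72 and -0.97. Rpl22l1 had 5.58, 5.27 and 5.58 in SVF and 5.03, 4.70 and 4.28 in adipocytes, a difference of -0.80 ± 0.22, whereas its partner Rpl22 differed by -0.27 and the dimmer Rpl22l1 probe by 0.09. Leaving out inguinal adipocyte replicate 3 left no member called in inguinal fat, leaving out inguinal SVF replicate 3 left 2 and inguinal SVF replicate 1 left 3. Progenitor and fibroblast markers summed to 581 and 419 in inguinal adipocyte replicates 1 and 2 and to 138 in replicate 3, against 497 to 1089 in inguinal SVF, and B cell markers to 34.8, 27.1 and 0.798. Their part in the inguinal result was not tested.

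In epididymal fat Rpl3, a large subunit protein near the catalytic centre, had 5.62, 5.66 and 5.93 in SVF and 4.98, 5.25 and 4.93 in adipocytes. The difference was -0.68 ± 0.23 (adjusted p = 0.0442). Rpl7l1, a relative of Rpl7 that acts in ribosome assembly, had 1.29, 1.24 and 1.5 in SVF and 0.67, 0.90 and 0.51 in adipocytes, a difference of -0.65 ± 0.22 (adjusted p = 0.0437). Neither gene's arrays overlapped. Its dimmer probe gave 0.02. Replicates with the same number deviated together in this depot. The replicate block used the number as a single factor shared by all groups, so it did not model a pairing within this depot alone. With it 1 member was called, Rps19bp1 (0.69, adjusted p = 0.0460), while Rpl3 (adjusted p = 0.05004), Rps27l (0.73, adjusted p = 0.05005) and Rpl7l1 (adjusted p = 0.0509) were not. Leaving out single arrays gave 0 to 3 calls in this depot, and 0 calls followed for 9 arrays of all groups, brown SVF replicates 1 and 3, brown adipocyte replicate 1, inguinal adipocyte replicate 1, the 3 epididymal SVF arrays, and epididymal adipocyte replicates 1 and 3.

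**Figure D4:**
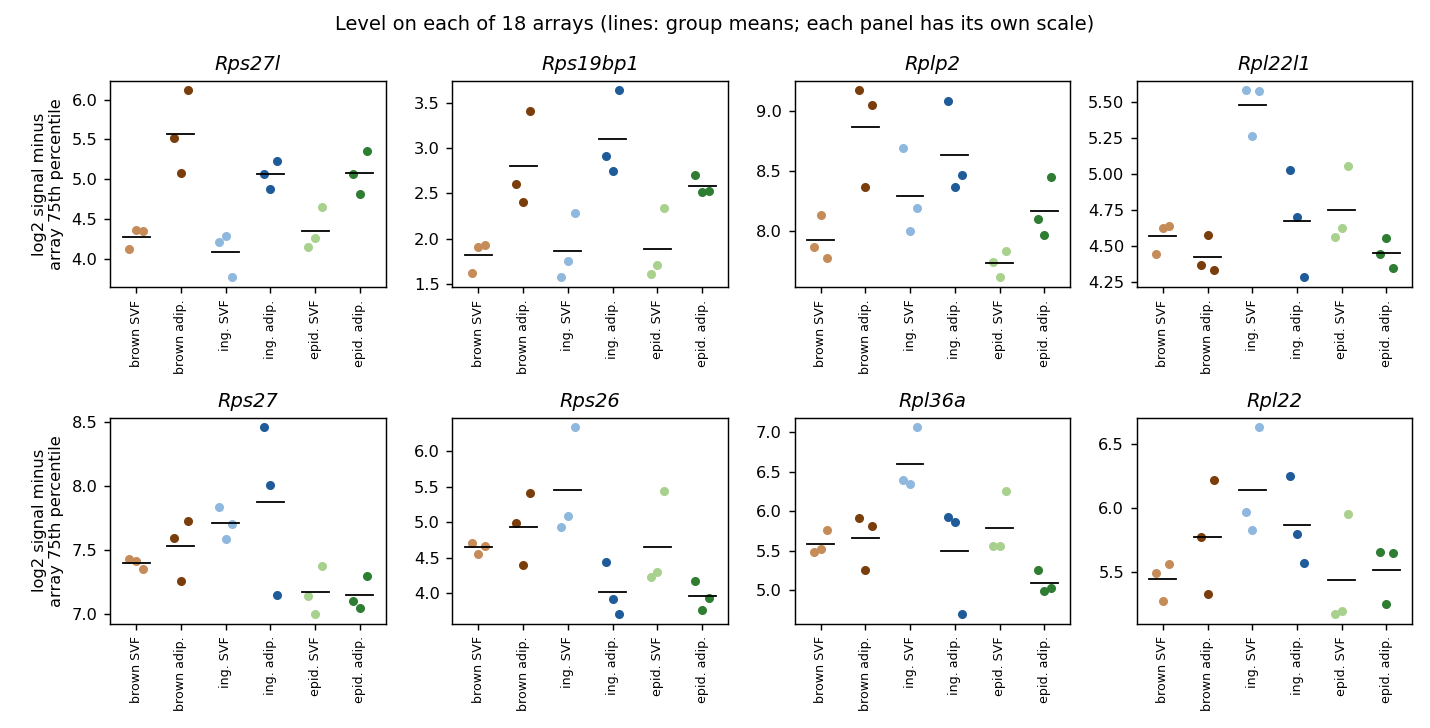
Level of 8 members on each of the 18 arrays (log2 signal minus the array's 75th percentile, each panel on its own scale), with lines at group means. Rps27l and Rps19bp1 are higher on adipocyte than on SVF arrays in each depot, Rpl22l1 is highest in inguinal SVF (5.27 to 5.58), and Rps27 differs between the fractions by -0.02 to 0.16.

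Across the 3 depots 15 members were above 0 in every fraction difference, 12 were below 0 and 56 were mixed. The former include Rplp1, Rplp2, Rps27l, Rps19bp1, Rpl11, Rps27a and Rps19, and the latter Rpl5, Rpl10, Rpl22l1, Rpl7l1 and Rpl31. These signs are those of the brightest probe and of the main scaling. Some of the brown differences were very small, such as those of Rps3 (0.030), Rpl12 (-0.0036) and Rpl8 (-0.0037). The median member difference in brown fat changed sign under quantile normalization and in the deposited matrix. The split is therefore given for the main scaling only and is not a fixed property of the genes. Rpl5 and Rpl11 bind the 5S RNA together and restrain Mdm2. Rpl5 differed by -0.13, -0.15 and -0.51 in brown, inguinal and epididymal fat and Rpl11 by 0.62, 0.37 and 0.12, none called. The other Rpl11 probe, well above background on 18 arrays, gave 0.23, -0.73 and -1.79, and with probes averaged Rpl11 was called lower in epididymal adipocytes (-0.84, adjusted p = 0.0411). Rps27a, made as a fusion with ubiquitin, differed by 0.60, 0.21 and 0.03. Rps6, the substrate of S6 kinase, differed by 0.07, -0.35 and -0.32, and the laminin-binding Rpsa by 0.18, -0.13 and -0.50. The other Rpsa probe was dimmer, well above background on 16 arrays, and gave -0.55, -0.26 and 0.21. The other Rps6 probe was well above background on only 7 arrays. It did not pass the filter on dim probes, so no difference is given for it.

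Whether the fraction difference depends on the depot was tested directly, and limma called no member in any of the 3 interactions. Brown minus inguinal had a median of 0.46 (74 of 83 above 0), and 0.9% of all genes were called, 0.135% higher and 0.765% lower. The largest was Rps26 (1.72 ± 0.56, adjusted p = 0.188), and the lowest p was that of the large subunit gene Rpl24 (1.16 ± 0.36, adjusted p = 0.166). Brown minus epididymal had a median of 0.35, with 2.09% of all genes called, 0.52% higher and 1.57% lower. Inguinal minus epididymal had a median of -0.07, with 0.0781% of all genes called, 0.0156% higher and 0.0624% lower.

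Among adipocytes, the family was lowest in epididymal fat on this scale. Brown exceeded epididymal adipocytes for 76 of 83 members (median 0.34, against -0.04 over all genes), with 6 called higher and none lower, where 28.8% of all genes were called, 11.7% higher and 17.1% lower. Inguinal exceeded epididymal adipocytes for 79 members (median 0.48, against -0.08), with 3 called higher and none lower (7.94% of all genes, 0.926% higher and 7.01% lower). Brown minus inguinal adipocytes had a median of -0.13 with no member called by limma (11.9% of all genes, 5.9% higher and 6.01% lower). Without inguinal adipocyte replicate 3, 5 members were called there, without inguinal SVF replicate 3, 2, and without brown adipocyte replicate 2 or inguinal SVF replicate 1, 1. Inguinal minus epididymal kept its sign under quantile normalization (0.19) and in the deposited matrix (0.20), while brown minus epididymal turned to -0.14 and -0.12. Under normexp inguinal minus epididymal was -0.0053 and brown minus inguinal 0.28.

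Rps25, a small subunit protein used by viral entry sites, was the most raised bright member in brown over epididymal adipocytes, with 7.13, 6.62 and 7.54 against 6.00, 5.96 and 6.27. The difference was 1.02 ± 0.32 (adjusted p = 0.0297), but its other probe gave -0.26. Rpl37, a zinc-binding large subunit protein, had 5.77, 5.28 and 6.10 against 4.91, 4.40 and 5.06, a difference of 0.93 ± 0.32 (adjusted p = 0.0431), and its other probe, well above background on 11 arrays, gave -0.21. Rpl3 had 5.89, 5.68 and 5.91 against 4.98, 5.25 and 4.93, a difference of 0.77 ± 0.23 (adjusted p = 0.0235). None of the 3 overlapped between the groups. Rps7 (0.76) and Rpl9 (0.73) were also called. The count of 6 was 10 with the replicate block and without inguinal SVF replicate 3 or inguinal adipocyte replicate 3, and 9 without brown adipocyte replicate 2. It was 0 without brown adipocyte replicate 1 or 3 or epididymal adipocyte replicate 3, 1 without epididymal adipocyte replicate 1 and 2 without replicate 2.

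The sixth call was Rpl3l, the striated muscle paralogue of Rpl3. It was well above background on 7 of 18 arrays, all 3 of brown SVF, 1 of brown adipocytes, 1 of inguinal SVF and 2 of inguinal adipocytes, and on no epididymal array. It passed the filter on dim probes only through brown SVF, where it is high, so this call is counted but no fold or p is given for it. Its level was -4.43, -3.70 and -4.72 in brown SVF, and its highest was -2.21, in inguinal SVF replicate 2. Skeletal muscle markers summed to 3.23 to 14.8 in brown adipocytes and 9.98 to 20.9 in epididymal adipocytes, and to 6.79 to 16.3 and 1.12 to 1.73 in the brown and epididymal SVF. In inguinal SVF they summed to 2.15, 48.5 and 3.39, highest on the array where Rpl3l was highest, and their part in its level was not tested.

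For inguinal over epididymal adipocytes the called members were Rps14, of the small subunit, and Rpl23a and Rpl7, of the large subunit. Rps14 had 8.82, 8.31 and 7.93 against 7.0, 7.20 and 7.62, a difference of 1.08 ± 0.31 (adjusted p = 0.0476). Rpl23a, which lies at the tunnel exit, had 8.11, 7.56 and 7.32 against 6.64, 6.57 and 7.04, and differed by 0.92 ± 0.26 (adjusted p = 0.0472). Rpl7 had 7.44, 6.89 and 6.63 against 6.03, 6.21 and 6.29, and differed by 0.81 ± 0.23 (adjusted p = 0.0422), and its other 2 probes gave 0.73 and 0.68. No arrays overlapped, and inguinal adipocyte replicate 1 was highest in each gene. Leaving out single arrays gave 0 calls without any brown SVF, epididymal adipocyte or brown adipocyte array other than brown adipocyte replicate 3 (2 calls), and without inguinal adipocyte replicate 1 or 2 or epididymal SVF replicate 1 or 2. It gave 1 without inguinal SVF replicate 2, 7 without inguinal SVF replicate 3 and 9 without inguinal adipocyte replicate 3. The Myc gene, which drives ribosome production, was at 3.90, 4.21 and 2.74 in inguinal and 1.99, 1.74 and 1.59 in epididymal adipocytes. The difference was 1.84 (adjusted p = 0.00805). Brown minus epididymal adipocytes gave -0.78 for Myc (adjusted p = 0.0861), although 76 of 83 members were above 0 there. Brown minus inguinal adipocytes gave -2.62 (adjusted p = 0.00066), with no member called. Between the SVFs Myc had the sign of most members, at 1.12 for inguinal minus epididymal and -1.29 for brown minus inguinal, neither called. The part of Myc in the member levels was not tested.

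The remaining pairs of paralogues were compared by their differences, not their levels. Between inguinal and epididymal SVF, Rpl36a and Rpl36al differed by 0.81 and 0.35, Rpl7 and Rpl7l1 by 0.38 and -0.04, and Rps27 and Rps27l by 0.54 and -0.26, none called. Rpl10, at the subunit joining site, differed by 0.46, Rpl39 by 0.77, Rps4x by 0.41 and Rpl26, which binds p53 messenger RNA, by 0.54. Of the members well above background on all arrays, the widest ranges of the 6 group means were those of Rpl31 (1.54), Rpl36a (1.51), Rps26 (1.5), Rps27l (1.49) and Rpl14 (1.44). The narrowest were those of Rpl29 (0.42), Rps29 (0.59) and Rps4x (0.60). Of the 40 members with several kept probes, 3 had probes of opposite sign in inguinal minus epididymal SVF, but 16 in the brown, 10 in the inguinal and 21 in the epididymal fraction difference.

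Over the 18 arrays most members varied together, described here by Pearson's r with the level of the median member, to which each contributes and whose arrays share scaling. The median r was 0.80, and 40 of 83 exceeded 0.8. Rpl27 (0.96) and Rps13 (0.94) were closest. The 10 members with r under 0.5 were Rpl21 (0.03), Rps27l (0.10), Rps19bp1 (0.24), Rpl3l (0.25), Rpl14 (0.29), Rps12 (0.33), Rpl4 (0.38), Rpl7l1 (0.40), Rplp1 (0.48) and Rpl27a (0.49), 4 of them non-canonical. For Rpl21 the brightest kept probe is that of a predicted transcript, and the probe of its RefSeq transcript gave differences of the opposite sign in all 3 depots (-0.31, -0.53 and -0.37, against 0.94, 0.37 and 0.93). Of 12701 other genes well above background on all arrays, the most alike were Nudt17 (0.95), B230369F24Rik (0.90) and 3 features without a gene symbol (0.91, 0.89 and 0.89).

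Fau and Rack1 had the same sign as most members between the SVFs: they differed by 0.61 and 0.52 between inguinal and epididymal SVF, neither called. Of 57 ribosome biogenesis genes, 6 rose and none fell in brown adipocytes over SVF, a share near that of all genes called higher (11.6%), among them the snoRNP protein gene Nop10 (1.61) and the assembly factor gene Pno1 (1.27). In inguinal fat 1 rose and 1 fell (8.96% of all genes were called higher and 5.27% lower). In epididymal fat 2 rose and none fell (17.9% higher and 7.31% lower). Pno1 rose in all 3 depots (1.32 in inguinal and 0.93 in epididymal fat). The median of the list was -0.43 in brown minus inguinal and 0.36 in inguinal minus epididymal SVF, with none called, beside -0.56 and 0.60 for the members.

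Of 36 translation factor genes, 3 rose and none fell in brown, 3 rose and 1 fell in inguinal, and 1 rose and 1 fell in epididymal adipocytes over SVF. Of all genes 11.6%, 8.96% and 17.9% were called higher in these comparisons. Eif3f, a subunit of initiation factor eIF3, fell in both white depots (-1.01 and -0.95). Of 17 genes that control translation, 3 rose and none fell in brown adipocytes over SVF. In inguinal fat 1 rose and none fell, and in epididymal fat 1 rose and 1 fell. Eif4ebp1, the mTOR-regulated inhibitor of cap-dependent initiation, rose in adipocytes of every depot, by 2.17 (brown), 3.09 (inguinal) and 2.48 (epididymal) (adjusted p at most 0.00411). Mtor itself rose in brown adipocytes over their SVF (1.05) and over inguinal (1.77) and epididymal adipocytes (1.59). Of the 17 genes, 1 was called higher and 1 lower in brown minus inguinal adipocytes (5.9% and 6.01% of all genes). In brown minus epididymal adipocytes 4 were higher and 1 lower (11.7% and 17.1% of all genes). The 78 mitochondrial ribosomal protein genes took another course in brown fat: 72 rose in brown adipocytes over SVF and none fell, with a median of 1.30, beside 3 of 83 and 0.22 for the cytosolic members. In inguinal fat 20 of 78 rose (median 0.69) and in epididymal fat 10 (0.43), none falling. The epididymal count is a smaller share than the 17.9% of all genes called higher there. In inguinal minus epididymal SVF their median was 0.05, beside 0.60 for the cytosolic members. These counts describe the lists, and the difference between them was not tested.

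**Figure D5:**
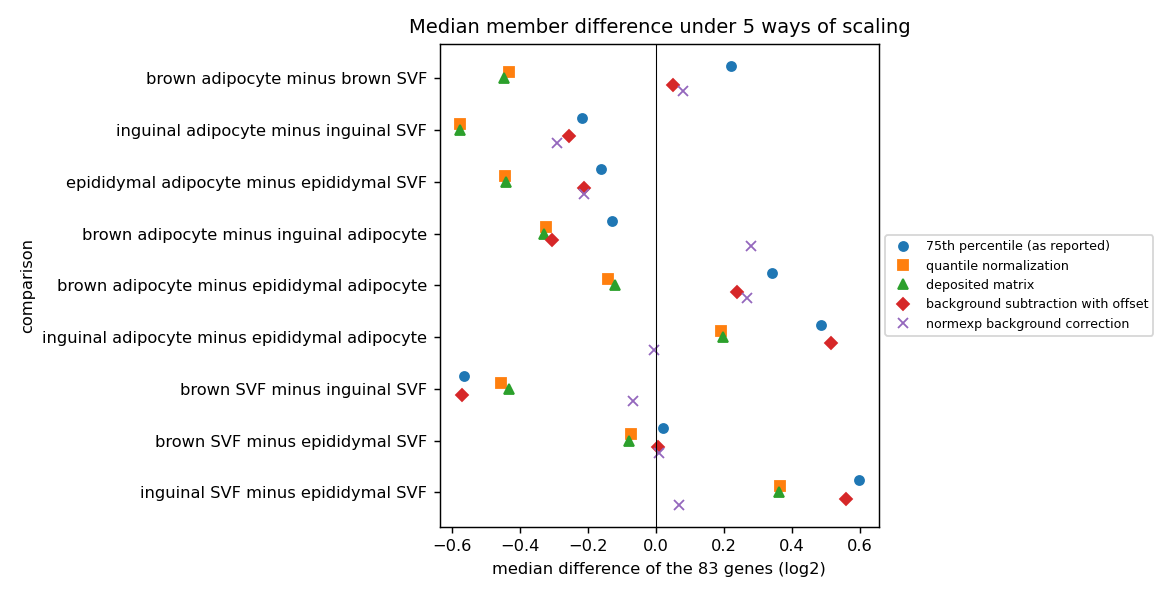
Median difference of the 83 members (log2) in 9 comparisons under 5 ways of scaling the arrays. Under the 75th percentile, quantile normalization and the deposited matrix, inguinal minus epididymal SVF stays above 0 (0.60, 0.36 and 0.36), while brown adipocyte minus brown SVF changes sign (0.22, -0.43 and -0.45).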

How the data were processed

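Per the file headers, the authors scanned each array and extracted it with Feature Extraction, which deposited a background-corrected processed signal (intensity) and flags per spot. The deposited matrix holds the authors' log2 values of 31201 probes (column medians 8.12 to 8.13), its normalization not given in the sources used here. Control spots and outlier-flagged spots were dropped, replicate spots were averaged per probe, and log2 intensity minus each array's 75th percentile taken. Names came from the newer design version in the files. A gene is its brightest probe, taken from the 28595 that were well above background throughout 1 group or more. Python 3.11.15 and limma 3.58.1 (R 4.3.3) were used, with lmFit and eBayes, 6 group means, two-sided, and an adjusted p threshold of 0.05. The test was tested on simulated data: of 50 genes changed by 1 log2 unit in the brown fraction comparison it recovered 18%, by 2 units 50%.

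Same-numbered fractions correlated in their deviations from group means at 0.42, 0.48 and 0.14 in epididymal fat, a pairing seen in the data and not in the labels, at -0.12, -0.05 and 0.39 in brown and at -0.14, 0.05 and -0.23 in inguinal fat. Alternatives were quantile normalization, normexp (offset 50, on median signals, since not all files hold mean signals), filters, probe averaging, the matrix, blocks, fewer groups and leaving out arrays. Plain background subtraction with that offset and scaling to the median member were added after seeing the data. Members named are, per comparison and direction, up to 4 called with the largest difference and no overlap, plus fixed members, paralogues and extremes of range; Rps7, Rpl9 and those named by probe or correlation were chosen after their values were seen. Members, lists and tests were chosen with earlier results of these data known.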

Additional observations from a re-analysis of the deposited data

How the results depend on the processing

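Counts of members called moved as follows. For brown adipocyte minus SVF (3) the count was 1 under normexp and when scaled to the median member, and 5 with probes well above background on all arrays, in the deposited matrix, and with slide or scan day as a block. For inguinal adipocyte minus SVF (5) it was 20 under quantile normalization, 23 in the deposited matrix, 0 under normexp and with only the arrays compared, and 2 without a filter, without the 2 arrays that stand apart (inguinal SVF 1 and epididymal adipocyte 3), and scaled to the median member. For epididymal adipocyte minus SVF (2) it was 8 under quantile normalization, 17 in the matrix, 1 with the replicate block, slide as a block or only the arrays compared, and 0 under normexp, without a filter, with scan day as a block, without the 2 arrays, and scaled to the median member. For brown minus inguinal adipocytes (0) it was 1 under quantile normalization, the stricter filter, the matrix, without the 2 arrays, and under background subtraction. For brown minus epididymal adipocytes (6) it was 10 with the replicate block, 2 without a filter, with slide as a block and scaled to the median member, 1 under quantile normalization, the matrix, background subtraction and without the 2 arrays, and 0 under normexp. For inguinal minus epididymal adipocytes (3) it was 1 with slide or scan day as a block and under background subtraction, and 0 under quantile normalization, normexp, the stricter filter, no filter, the matrix, only the arrays compared, without the 2 arrays, and scaled to the median member. For brown minus inguinal SVF (1) it was 6 with scan day as a block, 4 with slide as a block, 2 in the matrix, and 0 under quantile normalization, normexp, no filter, probe averaging, the replicate block, only the arrays compared, without the 2 arrays, and scaled to the median member. For inguinal minus epididymal SVF (0) it was 1 under normexp. Brown minus epididymal SVF and the interactions stayed at 0 under these alternatives.

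The median member difference moved to -0.43 and -0.45 (brown adipocyte minus SVF), -0.45 and -0.44 (epididymal adipocyte minus SVF) and -0.14 and -0.12 (brown minus epididymal adipocytes) under quantile normalization and in the matrix. Under normexp it was -0.0053 for inguinal minus epididymal adipocytes, -0.067 for brown minus inguinal and 0.0665 for inguinal minus epididymal SVF. The cause was not tested.

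Leaving out single arrays gave 1 to 5 members called and medians of 0.0664 to 0.43 for brown adipocyte minus SVF, 0 to 5 and -0.40 to 0.0012 for inguinal, and 0 to 3 and -0.26 to 0.033 for epididymal fat. It gave 0 to 5 and -0.28 to 0.0624 for brown minus inguinal, 0 to 10 and 0.19 to 0.54 for brown minus epididymal, and 0 to 9 and 0.29 to 0.70 for inguinal minus epididymal adipocytes. Among the SVFs it gave 0 to 2 and -0.69 to -0.35 for brown minus inguinal, 0 to 1 and -0.0661 to 0.24 for brown minus epididymal, and 0 and 0.43 to 0.84 for inguinal minus epididymal. The 3 interactions stayed at 0.

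The replicate block left 3 members called in brown fat and 5 in inguinal fat. The labels do not say whether same-numbered fractions are paired. Their deviations correlated at -0.12, -0.05 and 0.39 in brown fat, where same-numbered arrays also shared a slide. The call of Rps27l in brown fat was lost in 1 of 13 other alternatives, when scaled to the median member (0.79, adjusted p = 0.169). With 3 arrays per group, changes near 1 log2 unit were mostly missed on simulated data. The simulation changed few genes, drawn from all genes and not from the members, so its recovery does not measure that of the members. Members not called may still differ.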
